A study of Mus musculus with 114 samples.

Results

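The genes described here encode core proteins of the spliceosome's small nuclear ribonucleoproteins (snRNPs) and some relatives with like symbols. They were taken as every gene whose symbol starts with Snrp, with Sf3a, Sf3b, Prpf or Lsm followed by a digit. This gave 46 of the 29132 genes measured, of which 13 are Snrp, 3 Sf3a, 5 Sf3b, 13 Prpf and 12 Lsm genes. A mean log2(CPM + 1) above 2 over all mice, where CPM is the reads of a gene per 1000000 reads on genes, was passed by 45 of the 46 members and by 10343 genes in all. The member left out, the pseudogene Snrp1c-ps2, had no read in any mouse. Lsm8 and Sf3b6 were not matched to a gene by these symbols and were not analysed here.

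RNA was sequenced from adipocytes, which were taken as the floating layer of collagenase-digested perigonadal fat of male mice labelled C57BL/6, which the study's methods give as C57BL/6J. From 6 weeks of age they ate chow (CD) or a high fat diet (HFD) for 8, 20 or 34 weeks, with no other treatment or altered gene. Each group held 6 mice, except the 34 week CD group with 8. The question addressed is how the adipocyte transcriptome differs with diet and with its duration. Time on the diet and age rose together, so these cannot be told apart, nor can the time from anything else that differed between the dates of harvest.

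Introns are removed from pre-mRNA by the spliceosome, which is built from snRNPs that each hold a small nuclear RNA and its proteins. Most of these RNAs are held by a ring of Sm proteins, U6 by a ring of LSm proteins, while a closely related LSm ring works in the cytoplasm, where it promotes decapping and decay of mRNA. U1 recognises the start of the intron, U2 with the SF3a and SF3b complexes recognises the branch site, and the tri-snRNP of U4, U6 and U5 with its PRPF proteins brings in the catalytic core. Most of these genes are used by all cells, and in fat tissue they are known as housekeeping genes rather than as markers of a cell type. Snrpn, described below, is known mostly from brain and heart. Lsm10, Lsm11, Lsm12, Lsm14a and Lsm14b share the Lsm symbol but were listed apart from the ring subunits.

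The promoters of 5 members are shown because these genes are the ones followed mouse by mouse in what comes next. Snrpn and Snrpe were among the largest rises, and Prpf39 and Prpf38b among the largest falls. Sf3b3 was the single member called in the diet comparison at all 3 times by limma on the deposited values. By that fit no member was called in the same direction at all 3, where 12.2% of all genes were higher and 3.38% lower each time. The other 4 fits described below called Prpf40b lower at all 3 times and did not call Sf3b3 at 34 weeks. Each promoter shown is the 250 bases before the annotated start in RefSeq on GRCm38.p6, written along the strand of the gene: Snrpn at chr7:60005200-60005449 (minus strand), Snrpe at chr1:133610281-133610530 (minus), Prpf39 at chr12:65036084-65036333 (plus), Prpf38b at chr3:108911730-108911979 (minus) and Sf3b3 at chr8:110846804-110847053 (minus). Capitals mark matches, on either strand, to 6 short motifs, which are ETS (CCGGAAG), NRF1 (TGCGCA), SP/KLF (GGGCGG), NF-Y (CCAAT), the box called TATA with the letters TATAAA, and the E-box with CACGTG. None of the matches overlap here.
Snrpn: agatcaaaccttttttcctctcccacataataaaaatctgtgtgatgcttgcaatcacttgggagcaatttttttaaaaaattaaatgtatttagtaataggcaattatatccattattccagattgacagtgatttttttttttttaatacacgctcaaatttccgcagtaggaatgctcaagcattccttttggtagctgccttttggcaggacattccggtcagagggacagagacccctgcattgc
Snrpe: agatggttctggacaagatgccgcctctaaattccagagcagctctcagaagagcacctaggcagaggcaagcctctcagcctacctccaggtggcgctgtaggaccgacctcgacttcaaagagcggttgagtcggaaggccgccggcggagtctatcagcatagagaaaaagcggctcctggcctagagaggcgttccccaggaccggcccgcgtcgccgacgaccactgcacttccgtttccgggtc
Prpf39: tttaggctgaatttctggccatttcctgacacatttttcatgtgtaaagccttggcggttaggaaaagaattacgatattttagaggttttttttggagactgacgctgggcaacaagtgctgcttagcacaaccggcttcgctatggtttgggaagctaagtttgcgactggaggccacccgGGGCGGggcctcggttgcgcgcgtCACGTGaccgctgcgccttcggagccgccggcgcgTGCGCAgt
Prpf38b: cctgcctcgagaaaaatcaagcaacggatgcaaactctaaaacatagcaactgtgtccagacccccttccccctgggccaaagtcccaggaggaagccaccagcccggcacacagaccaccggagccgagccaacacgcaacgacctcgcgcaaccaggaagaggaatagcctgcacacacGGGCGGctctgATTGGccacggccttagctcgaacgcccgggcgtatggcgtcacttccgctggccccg
Sf3b3: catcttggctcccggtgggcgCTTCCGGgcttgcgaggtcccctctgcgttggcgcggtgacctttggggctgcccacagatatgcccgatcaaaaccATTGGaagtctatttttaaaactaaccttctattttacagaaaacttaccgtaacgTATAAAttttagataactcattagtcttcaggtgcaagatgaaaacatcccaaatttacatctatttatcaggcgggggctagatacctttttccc
Prpf39 held an SP/KLF, an E-box and an NRF1 match, Prpf38b an SP/KLF and an NF-Y match and Sf3b3 an ETS, an NF-Y and a TATA match, while the windows of Snrpn and Snrpe held none of these letters. The Snrpn window, before 1 of its 4 listed starts, had a GC content of 36.8% and 3 CpG dinucleotides, against 60.8% and 19 for Snrpe and 54.8% and 21 for Prpf39. Among the 46 windows found for 36 members, 28.3% held the ETS and 28.3% the NRF1 letters, against 6.91% and 6.43% of all 32851 promoter windows. The other 4 motifs were found in 45.7% against 32.7% (SP/KLF), 41.3% against 33.8% (NF-Y), 6.52% against 12.4% (TATA) and 10.9% against 6.02% (E-box) of the windows. ETS letters were in 3 of 3 Sf3a and 3 of 4 Sf3b windows, and in 1 of 11 Lsm windows. The median CpG number was 17 in the members' windows and 6 in all windows. These are matches of letters only, and no binding was measured.

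The libraries held 9275711 to 15480388 reads on genes per mouse, so that 1 read was 0.0646 to 0.108 CPM. At 8 weeks every HFD library was deeper (13201234 to 15480388 reads) than every CD library (10562845 to 12611013 reads). Diet and depth thus went together at 8 weeks, and the part of depth was not tested. The depths of the diets overlapped at 20 and 34 weeks. All 10 adipocyte markers, Adipoq and Plin1 among them, were detected in every group. Medians of their summed level were 60490, 61080 and 45630 CPM in CD and 42870, 30280 and 27620 CPM in HFD mice at 8, 20 and 34 weeks. Single markers did not all follow this sum. By limma on the deposited values, 1 of the 10 was called higher and 2 lower with HFD at 8 weeks (29.8% and 15.1% of all genes). At 20 weeks 1 and 7 were (38.3% and 18.7%), and at 34 weeks 0 and 8 (27.5% and 15.7%). T and B cell markers summed to at most 2.65 CPM. Macrophage RNA was present and moved with diet and time: the 10 macrophage markers had group medians of 672, 1518 and 3375 CPM in CD and 1808, 6256 and 10030 CPM in HFD mice at 8, 20 and 34 weeks. The 6 markers of lipid-associated macrophages had medians of 48.1, 48.5 and 1405 CPM in CD and 514, 5906 and 7356 CPM in HFD mice. Fibroblast and progenitor markers had medians of 212, 185 and 266 CPM in CD and 383, 736 and 409 CPM in HFD mice. Endothelial markers had medians of 63.0, 119 and 82.7 CPM in CD and 221, 282.5 and 166 CPM in HFD mice. In bulk RNA such as this, fewer cells of a type and less RNA per cell cannot be told apart, and the part of other cells in each result for the members was not tested. CD mouse 5 at 34 weeks had the highest macrophage sum of its group (11760 CPM) and its lowest adipocyte sum (31700 CPM). HFD mice 1 and 6 at 34 weeks had adipocyte sums of 39220 and 42860 CPM where the other 4 had 18320 to 32060 CPM. CD mouse 1 at 20 weeks had a lipid-associated macrophage sum of 1414 CPM where the others had at most 144 CPM.

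The scaling of the libraries sets how small differences are read. The deposited CPM values put the median log2 difference between diets over all genes at 0.11, 0.14 and 0.07 at 8, 20 and 34 weeks. TMM factors, which are meant to remove a composition shift, put it at 0.0018, -0.0521 and -0.0144. Which scaling is closer to the true levels was not tested. A member is called here when limma gives an adjusted p under 0.05. The results rest on members called in the same direction by all 5 fits, which are limma on deposited, TMM-scaled and median-of-ratios-scaled values, edgeR and DESeq2. No member was called in opposite directions by different fits. Fold changes are on the log2(CPM + 1) scale of the deposited values with their standard error (SE), which understates changes of low genes.

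Per kilobase of exon, the most abundant members were Snrpb at a mean of 43.7 CPM per kb, Prpf8 at 36.3, Lsm4 at 29.9, Sf3b1 at 26.7 and Prpf6 at 22.1. These are a core protein of the Sm ring, the scaffold of the catalytic centre, a ring subunit of U6, the subunit that holds the branch site and a bridge of the tri-snRNP. The lowest tested members were Lsm11 at 0.914, Lsm2 at 2.07 and Prpf39 at 2.37 CPM per kb. The Snrp, Prpf and Lsm families overlapped in level.

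After 8 weeks of HFD 10 genes of the PRPF and SF3 families fell and Snrpn rose. In all 5 fits, 10 of 45 members fell (22.2%, against 15.1% of all genes tested) and 1 rose (2.22%, against 21.5%). The 10 were Prpf38a, Prpf38b, Prpf39, Prpf40b, Prpf4b, Prpf6, Prpf8, Sf3a1, Sf3b1 and Sf3b3, that is, 7 of 13 Prpf, 1 of 3 Sf3a and 2 of 5 Sf3b genes, and no Snrp or Lsm gene was among them. With the deposited scaling alone 6 members were called higher and 10 lower, where 29.8% and 15.1% of all genes were, and with TMM factors 1 higher and 14 lower. With the deposited scaling the median log2 difference was -0.24 for Prpf, -0.17 for Sf3a and -0.19 for Sf3b against 0.12 for Lsm, 0.10 for Snrp and 0.11 for all genes. With TMM factors it was -0.348, -0.277 and -0.301 against 0.0232, -0.00421 and 0.00176. CD and HFD mice did not overlap for 10 of the 45 members at 8 weeks, 13 at 20 weeks and 1 at 34 weeks, where 22.8%, 37.2% and 2.46% of all genes were apart in this way.

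**Figure D1:**
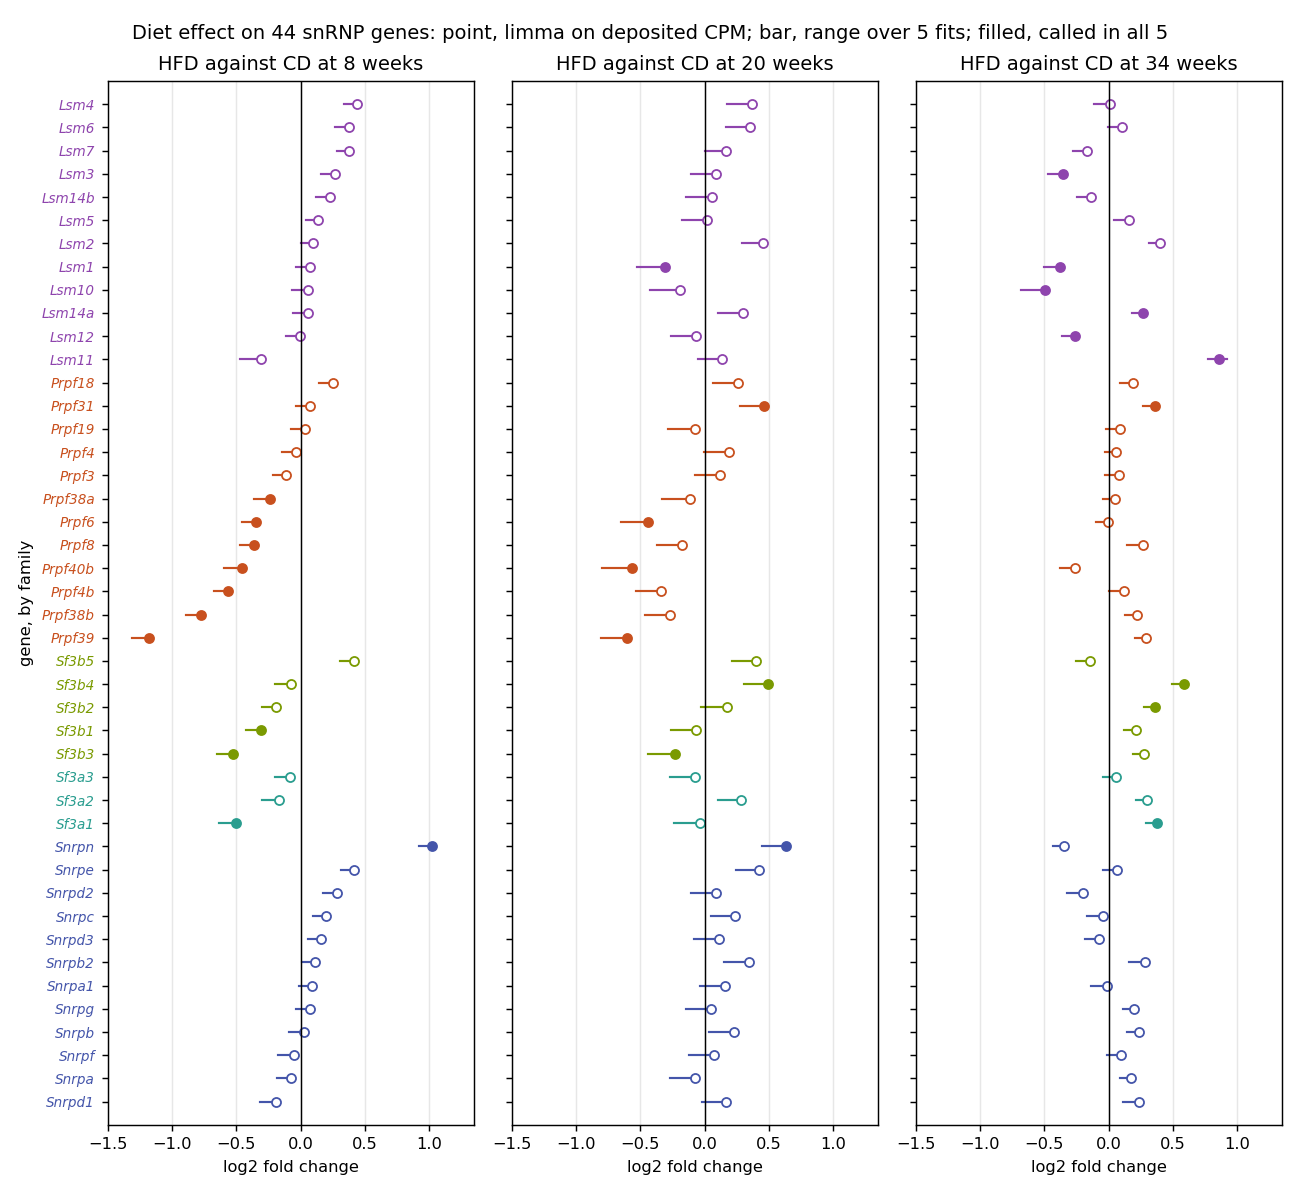
Log2 difference between HFD and CD mice for 44 of the 45 tested members at 8, 20 and 34 weeks. Points are the limma estimates on log2(CPM + 1), bars the range over the 5 fits, and filled points the members called in the same direction in all 5: 11 at 8 weeks, 8 at 20 weeks and 10 at 34 weeks.

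Prpf39, a protein that works with the U1 snRNP in choosing the start of introns, showed the largest fall of any member. At 8 weeks it was at 35.6 to 60.4 CPM in CD mice (median 37.6) and at 12.8 to 27.6 CPM in HFD mice (median 18.3). The groups did not overlap, and the log2 difference was -1.18 ± 0.21 (SE, n = 6 and 6; adjusted p = 4.36e-05). At 20 weeks the ranges were 41.1 to 48.6 and 23.2 to 36.8 CPM, a difference of -0.60 ± 0.21 (adjusted p = 0.0125), again without overlap. At 34 weeks CD mice were at 9.65 to 25.7 CPM (median 16.4) and HFD mice at 13.5 to 31.8 CPM (median 17.9), and the diets overlapped and no difference was called (0.29 ± 0.19, adjusted p = 0.22). The CD mice at 34 weeks overlapped the HFD mice at 8 weeks and were all below the CD mice at 8 weeks. Prpf39, at chr12:65036334-65063386, matches Fkbp3 on the opposite strand over 320 bases of exon, and whether the counting used strand is not given in the sources used here.

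Prpf38b, which joins the spliceosome before activation, had 83.6 to 112 CPM (median 95.1) in CD and 49.0 to 64.9 CPM (median 54.1) in HFD mice at 8 weeks. Every HFD mouse was below every CD mouse, by -0.78 ± 0.12 on the log2 scale (adjusted p = 1.6e-05). At 20 weeks the difference was -0.27 ± 0.12 (adjusted p = 0.0649), which passed without any 1 of CD mouse 6 or HFD mouse 4 at 20 weeks or CD mouse 5 or HFD mouse 3 at 34 weeks (adjusted p = 0.0385 to 0.0461) and was called lower by the other 4 fits (adjusted p = 0.00127 to 0.00372). At 34 weeks it was 0.22 ± 0.12 (adjusted p = 0.126), and it was called higher without CD mouse 5, whose 87.5 CPM stood above the 49.1 to 62.5 CPM of its group (adjusted p = 0.021), or without HFD mouse 1 (adjusted p = 0.0441). Prpf4b, the kinase that phosphorylates tri-snRNP proteins, fell from 76.3 to 98.5 CPM (median 83.5) in CD to 50.3 to 67.4 CPM (median 54.6) in HFD mice at 8 weeks, also without overlap (-0.56 ± 0.15, adjusted p = 0.00318). Its later diet differences of -0.34 ± 0.15 (adjusted p = 0.0538) and 0.12 ± 0.14 (adjusted p = 0.512) were not called, the first of them passing without any 1 of 9 mice (CD mouse 3 and HFD mouse 4 at 20 weeks, and CD mice 2, 5, 6, 7 and 8 and HFD mice 1 and 2 at 34 weeks; adjusted p = 0.0274 to 0.0499). The other 4 fits called it lower at 20 weeks (adjusted p = 0.00184 to 0.00359).

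Prpf8, the U5 protein at the heart of the catalytic centre, was at 305 to 370 CPM (median 316) in CD and 210 to 329 CPM (median 254) in HFD mice at 8 weeks. The groups overlapped, and the difference of -0.36 ± 0.14 (adjusted p = 0.032) was lost without any 1 of CD mice 2 or 3 or HFD mice 3, 4 or 6 (adjusted p = 0.0612 to 0.0883). Its differences at 20 and 34 weeks were -0.17 ± 0.14 and 0.26 ± 0.13 (adjusted p = 0.286 and 0.0953), the latter passing without CD mouse 7 or 8 or HFD mouse 4 (adjusted p = 0.0221 to 0.0355). At 20 weeks the other 4 fits called Prpf8 lower (adjusted p = 0.0275 to 0.0456). Prpf6 and Prpf40b, a tri-snRNP bridge and a U1-associated protein, were lower at both 8 and 20 weeks in all 5 fits. Prpf6 differed by -0.35 ± 0.09 and -0.44 ± 0.09 (adjusted p = 0.00335 and 0.000161), and Prpf40b by -0.46 ± 0.12 and -0.56 ± 0.12 (adjusted p = 0.00234 and 0.000143). At 34 weeks they differed by -0.01 ± 0.09 and -0.26 ± 0.11 (adjusted p = 0.939 and 0.0564), and Prpf40b passed without HFD mouse 4 at 20 weeks or without CD mouse 2 or HFD mouse 1, 2 or 4 at 34 weeks (adjusted p = 0.0165 to 0.0494). The other 4 fits called Prpf40b lower at 34 weeks (adjusted p = 0.0113 to 0.0179).

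Of the SF3 complexes, Sf3b3, Sf3a1 and Sf3b1 fell with the diet at 8 weeks. Sf3b3, a large scaffold subunit of SF3b, was at 87.1 to 120 CPM (median 96.8) in CD and 62.9 to 80.0 CPM (median 67.2) in HFD mice at 8 weeks, which do not overlap (-0.53 ± 0.09, adjusted p = 6.25e-05). It was lower again at 20 weeks (-0.23 ± 0.09, adjusted p = 0.034), a call lost without any 1 of CD mice 1, 4 or 5 or HFD mice 1, 5 or 6 (adjusted p = 0.0588 to 0.114). It was higher at 34 weeks (0.28 ± 0.09, adjusted p = 0.0119), a rise that the other 4 fits did not call (adjusted p = 0.0664 to 0.0852). Sf3a1, the largest subunit of SF3a, fell from a median of 33.2 to 23.5 CPM at 8 weeks (-0.51 ± 0.10, adjusted p = 0.000111). It was at medians of 31.0 and 29.6 CPM at 20 weeks (-0.03 ± 0.10, adjusted p = 0.78), a difference that depends on the scaling, being -0.19 to -0.24 in the other 4 fits and called lower with TMM factors and edgeR (adjusted p = 0.0357 and 0.0307). It rose from 28.2 to 39.0 CPM at 34 weeks (0.38 ± 0.09, adjusted p = 0.00125). Sf3b1, the branch-site subunit, had 305 to 357 CPM (median 325) in CD and 249 to 277 CPM (median 263) in HFD mice at 8 weeks, without overlap (-0.31 ± 0.11, adjusted p = 0.019). Its differences at 20 and 34 weeks were -0.07 ± 0.11 (adjusted p = 0.623) and 0.21 ± 0.10 (adjusted p = 0.087), of which the later was called higher without CD mouse 5 or HFD mouse 1 or 6 (adjusted p = 0.0132 to 0.0357). The 20 week difference was -0.22 to -0.26 in the other 4 fits, called lower with TMM factors, edgeR and DESeq2 (adjusted p = 0.0196 to 0.0427) but not with median-of-ratios factors (adjusted p = 0.0532).

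**Figure D2:**
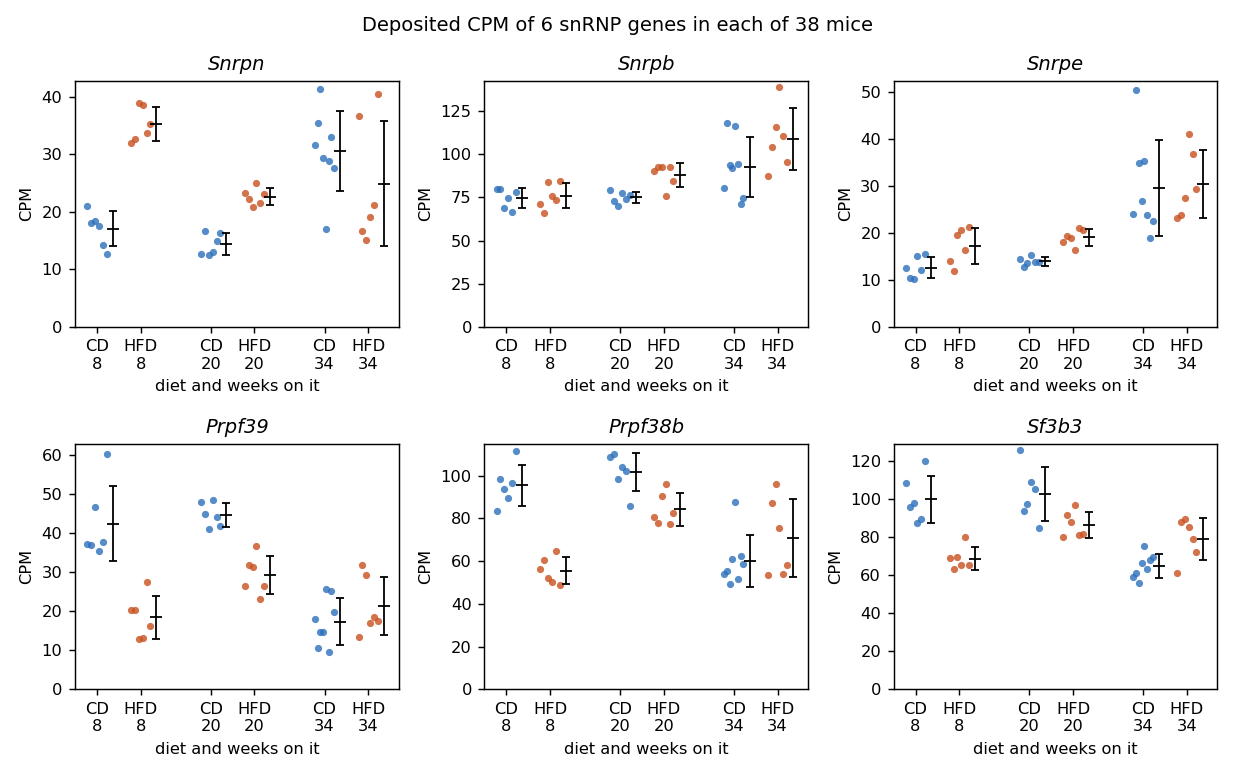
CPM of 6 members in the 38 mice, by diet and weeks on the diet. Points are mice and bars the mean ± SD; at 8 weeks Snrpn was higher and Prpf39, Prpf38b and Sf3b3 lower in every HFD than in every CD mouse, while Snrpb overlapped.

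Snrpn, at chr7:59982495-60450177, was the one member that rose in all 5 fits at 8 weeks. It encodes SmN, a close relative of SmB (Snrpb) that takes the same place in the Sm ring, and it is an imprinted gene expressed from the paternal copy and known mostly from brain and heart. At 8 weeks it was at 12.6 to 21.1 CPM (median 17.8) in CD and 32.0 to 39.0 CPM (median 34.6) in HFD mice, and at 20 weeks at 12.5 to 16.7 CPM (median 14.0) and 20.9 to 25.0 CPM (median 22.6). At both times every HFD mouse was above every CD mouse, by 1.02 ± 0.18 (adjusted p = 4.01e-05) and 0.63 ± 0.18 (adjusted p = 0.00282). At 34 weeks the CD mice were at 17.0 to 41.3 CPM (median 30.5) and the HFD mice at 15.2 to 40.5 CPM (median 20.2). The diets overlapped, and the difference of -0.35 ± 0.17 was not called (adjusted p = 0.0863), while limma called it lower with TMM and median-of-ratios factors (-0.43 and -0.44, adjusted p = 0.0355 and 0.0313) and edgeR and DESeq2 did not (adjusted p = 0.0706 and 0.0527). It was called lower without CD mouse 5 (17.0 CPM), HFD mouse 1 (36.7 CPM) or HFD mouse 6 (40.5 CPM), with log2 differences of -0.46, -0.47 and -0.50 (adjusted p = 0.00866 to 0.0175). Snurf, which shares 206 bases of exon with Snrpn on the same strand, was listed at 0 in every mouse.

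Snrpb showed no called difference at 8 or 20 weeks (0.02 ± 0.10 and 0.23 ± 0.10, adjusted p = 0.866 and 0.0598), the latter passing without HFD mouse 4 at 20 weeks or CD mouse 2, 5 or 7 or HFD mouse 4 at 34 weeks (adjusted p = 0.0321 to 0.0469). Its rise of 0.24 ± 0.10 at 34 weeks (adjusted p = 0.0468) was called by the deposited scaling but not by all 5 fits, and leaving out any 1 of 23 of the 38 mice removed it (0.16 to 0.24, adjusted p = 0.0502 to 0.17). The balance of the 2 alternative ring subunits, log2((Snrpn + 1)/(Snrpb + 1)) in each mouse, was -2.09 ± 0.253 (SD) in CD and -1.09 ± 0.0996 in HFD mice at 8 weeks. This difference of 1.00 had an exact two-sided permutation p = 0.00216, the smallest that 6 against 6 mice allow (0.00649 adjusted over the 3 times). Since Snrpb differed by only 0.02 at 8 weeks, the balance there largely repeats the Snrpn difference in the same mice. The pair was chosen with earlier results of these data known, so the p values of the balance add no separate evidence on Snrpn. At 20 weeks HFD mice were higher by 0.41 (exact permutation p = 0.00433, adjusted p = 0.00649). At 34 weeks they were lower by -0.58 without passing (exact permutation p = 0.103, adjusted p = 0.103), and passed without CD mouse 5 (-0.743, adjusted p = 0.0379), HFD mouse 1 (-0.770, adjusted p = 0.0497) or HFD mouse 6 (-0.772, adjusted p = 0.0474). In plain shares, Snrpn made up a median of 18.8% of the CPM of the pair in CD and 31.5% in HFD mice at 8 weeks, 15.9% and 19.9% at 20 weeks and 25.6% and 14.9% at 34 weeks.

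**Figure D3:**
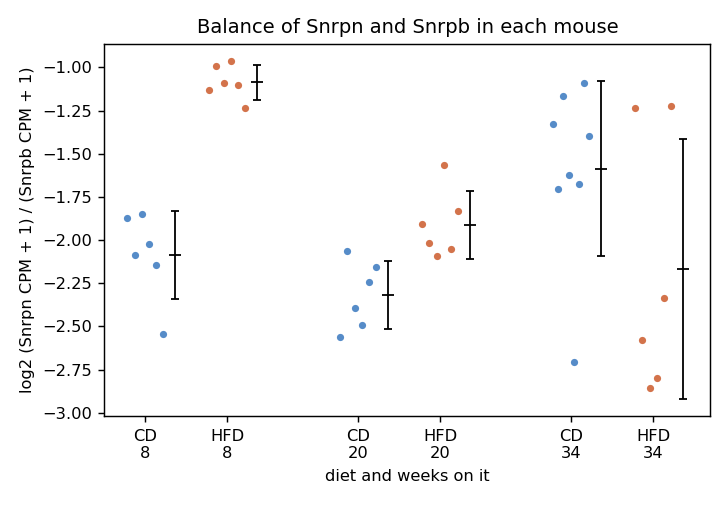
Balance of Snrpn to Snrpb, log2((Snrpn CPM + 1)/(Snrpb CPM + 1)), in each mouse by diet and weeks. Points are mice and bars the mean ± SD; HFD exceeded CD mice by 1.00 at 8 weeks and 0.41 at 20 weeks, and the groups overlapped at 34 weeks.

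Ndn, another paternally expressed gene of the same imprinted cluster, was tested alongside. It differed by 1.02 ± 0.23 at 8 weeks (adjusted p = 0.000658), by 0.54 ± 0.23 at 20 weeks (adjusted p = 0.0413) and by -0.97 ± 0.21 at 34 weeks (adjusted p = 0.00063), with mean levels of 14.9 and 30.7 CPM in CD and HFD mice at 8 weeks and 33.2 and 15.7 CPM at 34 weeks. Of the 6 genes listed for this cluster, 2 were tested, and the other, Ube3a, did not follow Ndn, with differences of -0.09 ± 0.16, -0.14 ± 0.16 and 0.08 ± 0.15 (adjusted p = 0.662, 0.45 and 0.67).

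After 20 weeks a smaller share of the members than of all genes was called. It was 17.8% against 45.2% in all 5 fits. There 3 members rose, Prpf31, Sf3b4 and Snrpn (6.67%, against 26.5% of all genes). The 5 that fell were Lsm1, Prpf39, Prpf40b, Prpf6 and Sf3b3 (11.1%, against 18.7%). The deposited scaling gave 14 higher and 5 lower, where 38.3% and 18.7% of all genes were, and TMM factors 3 higher and 16 lower, so most calls at this time were made in 1 scaling and not in the other. The total of 19 also fell to 11 without HFD mouse 5 and to 12 without HFD mouse 6. Prpf31, a tri-snRNP protein that holds U4, was at 18.6 to 28.5 CPM (median 24.7) in CD and 30.1 to 36.2 CPM (median 33.4) in HFD mice, without overlap (0.46 ± 0.09, adjusted p = 6.27e-05). Sf3b4, an SF3b subunit that contacts the pre-mRNA near the branch site, was at 13.2 to 21.5 CPM (median 15.6) and 21.8 to 26.9 CPM (median 22.9), also apart (0.49 ± 0.13, adjusted p = 0.00186).

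In all 5 fits, none of the 10 genes that had fallen at 8 weeks was lower after 34 weeks, and the 4 members that fell were LSm genes. Some fits called 4 more lower: Prpf40b, which is 1 of the 10, Snrpd2 (adjusted p = 0.0242 to 0.0414 in the 4 fits other than the deposited scaling), Snrpn as given above, and Lsm14b (edgeR and DESeq2, adjusted p = 0.0465 and 0.039). In all 5 fits 7 members rose (15.6%, against 20.4% of all genes) and 4 fell (8.89%, against 15.7%). Among the 7 were Lsm11, Lsm14a, Prpf31, Sf3a1, Sf3b2 and Sf3b4, and the 4 were Lsm1, Lsm10, Lsm12 and Lsm3. Of these, Lsm10, Lsm11, Lsm12 and Lsm14a were listed apart from the ring subunits. The deposited scaling gave 12 higher and 4 lower, where 27.5% and 15.7% of all genes were, and TMM factors 7 and 7. Each of the 5 fits estimated the spread of a gene over all 6 groups together. With the 34 week mice fitted alone, 6 members were called higher and 1 lower, where 1693 and 764 of the 10343 genes were. Most of the falls at this time thus rest on the spread taken from all groups. Lsm11 was the single member whose diets did not overlap at 34 weeks. The 8 CD mice were at 2.99 to 5.65 CPM (median 3.74) and the 6 HFD mice at 6.03 to 9.77 CPM (median 8.06), a rise of 0.86 ± 0.14 (adjusted p = 4.2e-05). Lsm11 and Lsm10 belong to the U7 snRNP, which forms the ends of histone mRNAs, and Lsm10 moved the other way, by -0.50 ± 0.14 (adjusted p = 0.00394), from a median of 17.3 CPM in CD to 12.9 CPM in HFD mice. Lsm11 holds repeats also found in 38 other genes and was the member with the fewest reads per kilobase, so its level is the least certain.

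Lsm1, which makes the LSm ring cytoplasmic, fell at 20 and 34 weeks by 0.31 and 0.38 on the log2 scale (SE 0.12 and 0.11, adjusted p = 0.028 and 0.00693). The earlier of these calls was lost without any 1 of CD mice 3 or 4 or HFD mice 1 or 5 (adjusted p = 0.0526 to 0.0698). Lsm3, a subunit of both rings, was at medians of 38.2 CPM in CD and 34.1 CPM in HFD mice at 34 weeks (-0.36 ± 0.13, adjusted p = 0.0245), and the call was lost without any 1 of CD mice 2 or 3 or HFD mice 2 or 3 (adjusted p = 0.0638 to 0.101). Lsm2, of both rings as well, was higher at 20 and 34 weeks by the deposited scaling (0.45 ± 0.17 and 0.40 ± 0.16, adjusted p = 0.0209 and 0.0384). Its 34 week value rested in part on HFD mouse 4, at 15.8 CPM where the others were at 9.19 to 10.1 CPM, and without this mouse it was 0.29 (adjusted p = 0.142). The call was also lost without any 1 of CD mice 4, 6, 7 or 8 or HFD mouse 5 (adjusted p = 0.0521 to 0.0861), and at 20 weeks without CD mouse 3 (adjusted p = 0.0736). Of the 7 ring subunits tested, 1 was called higher and 2 lower at 34 weeks with the deposited scaling (27.5% and 15.7% of all genes were), and none higher and the same 2 lower in all 5 fits.

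Besides Snrpn, 5 members were called higher at 8 weeks with the deposited scaling and not in all 5 fits: Lsm4, Sf3b5, Snrpe, Lsm6 and Snrpd2, all subunits of rings or of SF3b. Lsm4 differed by 0.44 ± 0.15 (adjusted p = 0.014), Sf3b5 by 0.42 ± 0.14 (adjusted p = 0.0137) and Snrpe by 0.42 ± 0.17 (adjusted p = 0.0418), the last being lost without any 1 of CD mice 1, 2, 3 or 5 or HFD mice 3, 4 or 6 (adjusted p = 0.0581 to 0.108). The 5 fits put the Lsm4 difference at 0.33 to 0.44.

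In CD mice few members differed between 8 and 20 weeks and many between 8 and 34 weeks, in shares near those of all genes tested. Between 8 and 20 weeks 1 member was called, Lsm14a, an RNA-binding protein of cytoplasmic P-bodies, which fell by 0.32 on the log2 scale (SE 0.07, adjusted p = 0.00441) where 3.58% of all genes were called. Between 8 and 34 weeks, 16 members rose and 11 fell in all 5 fits (35.6% and 24.4%, against 32.4% and 24.5% of all genes), that is, 60.0% of the members against 56.8% of all genes. The 16 were 7 Snrp genes (Snrpb2, Snrpc, Snrpd2, Snrpd3, Snrpe, Snrpf and Snrpn), 7 Lsm genes (Lsm10, Lsm14b, Lsm2, Lsm3, Lsm4, Lsm6 and Lsm7), Prpf31 and Sf3b5. The 11 were 6 Prpf genes (among them Prpf38b, Prpf39, Prpf4b, Prpf6 and Prpf8), Lsm11, Lsm14a, Sf3a1, Sf3b1 and Sf3b3. With the deposited scaling 25 were higher and 11 lower (40.1% and 24.6% of all genes) and with TMM factors 16 and 15. The median log2 difference was 0.56 for Snrp, 0.47 for Lsm, -0.19 for Prpf, -0.18 for Sf3a, -0.27 for Sf3b and 0.13 for all genes. The times did not overlap for 12 members (24.7% of all genes).

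Snrpe, a subunit of the Sm ring, rose most, from 10.2 to 15.4 CPM (median 12.2) at 8 weeks to 19.0 to 50.3 CPM (median 25.4) at 34 weeks. The times did not overlap (1.13 ± 0.16, adjusted p = 3.87e-07, n = 6 and 8). Lsm4 rose by 0.89 ± 0.14 (adjusted p = 1.59e-06), from a median of 20.0 to 37.4 CPM, and all 7 tested LSm ring genes and 7 of 8 Sm ring genes were called higher with the deposited scaling, where 40.1% of all genes were. In all 5 fits 5 of the 7 and 5 of the 8 were, where 32.4% of all genes were. Prpf39 fell by 1.29 on the log2 scale (SE 0.19, adjusted p = 1.06e-06) and Prpf4b by 1.03 (SE 0.14, adjusted p = 2.75e-07), the latter from 76.3 to 98.5 CPM down to 27.8 to 58.9 CPM (median 42.9), which do not overlap. Prpf8 fell by 0.69 (SE 0.13, adjusted p = 2.86e-05), from a median of 316 to 197 CPM. The comparison of 34 against 8 weeks in CD mice and the diet comparison at 8 weeks share the same 6 CD mice, so they are not independent. The values of each are given side by side only, time first: Prpf39 -1.29 and -1.18, Prpf38b -0.68 and -0.78, Sf3b3 -0.61 and -0.53, Snrpn 0.79 and 1.02, Snrpe 1.13 and 0.42.

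**Figure D4:**
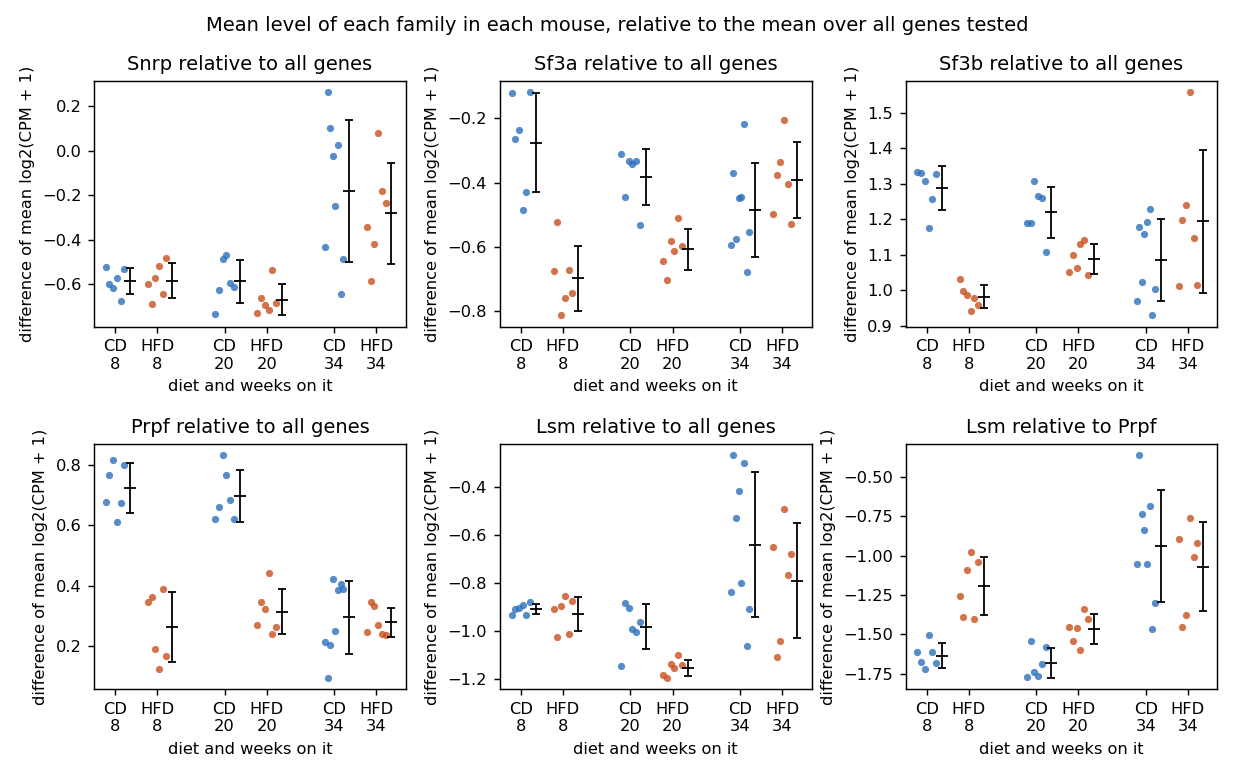
Mean log2(CPM + 1) of each family in each mouse minus the mean over all tested genes in that mouse, and the Lsm mean relative to the Prpf mean. Points are mice and bars the mean ± SD; the Prpf family was at 0.612 to 0.819 in CD and 0.121 to 0.390 in HFD mice at 8 weeks, and at 0.0920 to 0.422 in CD mice at 34 weeks.

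Set against the mean of all tested genes in the same mouse, which does not depend on the scaling of the library apart from the pseudocount, the Prpf, Sf3a and Sf3b means separated the diets at 8 weeks. The Prpf mean was 0.612 to 0.819 above all genes in CD mice at 8 weeks and 0.121 to 0.390 above in HFD mice, without overlap, and at 20 weeks 0.620 to 0.835 and 0.239 to 0.443. At 34 weeks it was 0.0920 to 0.422 in CD and 0.235 to 0.345 in HFD mice, and the diets overlapped. The Sf3b mean was 1.18 to 1.33 in CD and 0.941 to 1.03 in HFD mice at 8 weeks, and the Sf3a mean -0.485 to -0.119 and -0.813 to -0.523, again apart. That mean over all genes was itself higher in HFD than in CD mice. Its group means were 5.08 against 4.91 at 8 weeks, 5.22 against 4.93 at 20 weeks and 5.21 against 5.06 at 34 weeks. Without this reference, on the deposited values, the Prpf mean was still apart at 8 weeks (5.541 to 5.765 in CD and 5.215 to 5.465 in HFD mice). The Sf3a and Sf3b means then overlapped between the diets at 8 weeks, as did the Prpf mean at 20 weeks. The Lsm mean minus the Prpf mean was -1.64 ± 0.0773 (SD) in CD and -1.19 ± 0.182 in HFD mice at 8 weeks, and -0.937 ± 0.356 in CD mice at 34 weeks, where single mice reached from -1.47 to -0.360. No p is given for these means, since members were chosen with results known.

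The changes with time in HFD mice came from the same fit. From 8 to 20 weeks, 7 members rose and 4 fell in all 5 fits (15.6% and 8.89%, against 18.2% and 15.0% of all genes). Prpf39 rose by 0.68 ± 0.21 (adjusted p = 0.0108) and Prpf38b by 0.60 ± 0.12 (adjusted p = 0.000574), while Snrpn fell by 0.61 (SE 0.18, adjusted p = 0.00755). Lsm1 fell by 0.35 (SE 0.12, adjusted p = 0.0205), a call lost without HFD mouse 6 at 8 weeks or mouse 1 at 20 weeks (adjusted p = 0.0515 and 0.0527). From 8 to 34 weeks, 18 members rose and 2 fell of the 45 (25.4% and 20.7% of all genes did). Among the 18 were 8 Snrp genes (Snrpa, Snrpb, Snrpb2, Snrpc, Snrpd1, Snrpe, Snrpf and Snrpg), 4 Lsm genes, Prpf31, Prpf38a, Sf3a1, Sf3a3, Sf3b2 and Sf3b4. Lsm2 rose most (0.93 ± 0.17, adjusted p = 3.69e-05), from a median of 5.05 to 9.51 CPM, followed by Snrpb2, a U2 protein, at 0.80 ± 0.14 (adjusted p = 3.44e-05), from 18.6 to 31.9 CPM. The 2 that fell were Snrpn (-0.58 ± 0.18, adjusted p = 0.00645) and Prpf4b (-0.35 ± 0.15, adjusted p = 0.0463), and leaving out any 1 of 15 mice took the Prpf4b call away (adjusted p = 0.05 to 0.122).

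The difference between times in the diet effect was tested itself as an interaction. Between 8 and 20 weeks 1 member was called with the deposited scaling, Sf3a1 (0.47 ± 0.14, adjusted p = 0.0403; 4.49% of all genes were called). None was called in all 5 fits (3.47% of all genes were). Leaving out any 1 of 14 mice removed the Sf3a1 call (adjusted p = 0.0523 to 0.0798), while 9 members were called without CD mouse 1 at 20 weeks. Between 8 and 34 weeks, 12 members had a more positive and 4 a more negative diet difference in all 5 fits (26.7% and 8.89%, against 12.2% and 13.9% of all genes). Among the 12 were Prpf38b, Prpf39, Prpf4b, Prpf8, Sf3a1, Sf3a2, Sf3b1, Sf3b2, Sf3b3, Sf3b4 and Lsm11, and they made up 5 Prpf, 2 Sf3a, 4 Sf3b and 1 Lsm gene. The 4 were Snrpn, Snrpd2, Sf3b5 and Lsm3. With the deposited scaling 14 and 7 members were called, where 13.0% and 15.9% of all genes were. Prpf39 had the largest positive term (1.47 ± 0.28, adjusted p = 0.000296), then Lsm11 (1.16 ± 0.21, adjusted p = 0.000122), and Snrpn the largest negative (-1.37 ± 0.24, adjusted p = 0.000124), with Lsm3 next (-0.62 ± 0.19, adjusted p = 0.0127). The median over the members was 0.16 and over all genes -0.00465.

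Exon length moved with these results. In the GENCODE vM21 annotation the median union of exons was 2159 bases for Snrp, 2822 for Lsm and 2785 for Sf3a genes, but 5671 for Prpf and 6822 for Sf3b genes. Across the 45 tested members the log2 difference in CD mice between 34 and 8 weeks had a Pearson r of -0.68 with the log of the exon length (Spearman -0.68), against -0.31 across 10310 genes tested (Spearman -0.37). For the diet difference at 8 weeks it was -0.56 against -0.12, at 34 weeks 0.35 against 0.12. These are correlations across genes of the same libraries, which share mice and depth, and genes are not independent replicates. In CD mice between 34 and 8 weeks, 20 of the 23 members with exons of up to 3486 bases were called higher and none lower, where 59.8% and 10.9% of all genes of these lengths were. Of the 13 members of 6088 bases or more 2 were called higher and 10 lower, where 22.0% and 40.5% were. The part of length in the split between families was not tested.

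**Figure D5:**
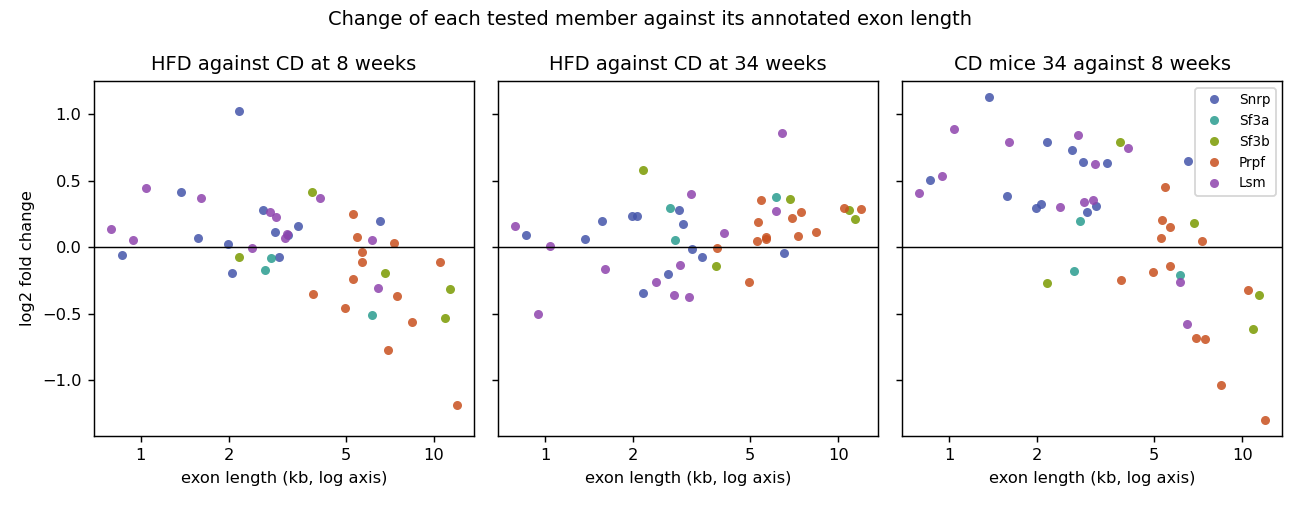
Log2 difference of the 45 tested members against exon length in kb (log axis), for the diet at 8 weeks, the diet at 34 weeks and 34 against 8 weeks in CD mice. Each point is a member, marked by family; Pearson r was -0.56, 0.35 and -0.68.

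Other spliceosome genes, from lists of proteins beyond these symbols, are set beside the shares of all genes called higher and lower with the deposited scaling, which were 29.8% and 15.1% at 8 weeks, 38.3% and 18.7% at 20 weeks and 27.5% and 15.7% at 34 weeks. Of 29 further snRNP proteins, 5 were called higher and 6 lower at 8 weeks, 12 and 3 at 20 weeks and 7 and 3 at 34 weeks. Of 23 factors of the Prp19 complex (NTC) and the catalytic steps, 3 and 3, 9 and 1 and 11 and 2 were. Of 14 factors of Sm assembly and import 3 and 3, 3 and 1 and 0 and 1 were, and of 8 decapping partners of the cytoplasmic LSm ring 2 and 2, 3 and 0 and 3 and 0. Snrnp25, a protein of the minor spliceosome, rose from 2.95 ± 0.496 CPM to 10.3 ± 3.63 CPM (mean ± SD) at 8 weeks (1.46 ± 0.22, adjusted p = 7.43e-06) and by 1.25 ± 0.22 at 20 weeks (adjusted p = 1.43e-05). Rnpc3, also of the minor spliceosome, fell by 0.59 and 0.83 at 8 and 20 weeks (SE 0.11, adjusted p = 0.000144 and 4.88e-07). Sf1, the first protein to bind the branch site, fell by 0.78 and 0.65 (SE 0.13, adjusted p = 2.62e-05 and 8.48e-05). At 20 weeks Ppil1, an isomerase of the spliceosome, rose by 0.77 ± 0.13 (adjusted p = 5.08e-06). At 34 weeks Patl1, a decapping factor, rose by 0.61 ± 0.17 (adjusted p = 0.00398), Cdc5l of the NTC by 0.55 ± 0.11 (adjusted p = 0.000207), and Zrsr1 fell by 0.41 (SE 0.15, adjusted p = 0.0217).

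Reads of some members can be shared with copies elsewhere in the genome. A match of at least 100 bases at 95% identity or more to another gene was found for 23 members. Processed copies in the table had low values, such as a mean of 4.00 CPM for Gm8186 (Snrpg) and 0.345 CPM for Gm7935 (Sf3b4), and how reads aligned to several places were treated is not given in the sources used here, while the study's methods state that reads were counted only where their gene was unambiguous. Sf3a2, Sf3b3 and Snrpd3 overlap exons of Plekhj1, Cog4 and Gucd1 on the opposite strand by 429, 102 and 147 bases.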

How the data were processed

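RNA of isolated adipocytes was sequenced in 114 samples, 3 technical replicates of each of 38 mice, from stranded poly(A) libraries. The authors aligned the reads to mm10 with STAR (version 2.5 or 2.5.2b in the submitters' processing notes) and counted them with featureCounts on GENCODE vM2 genes, each taken as all its exons joined (Subread 1.5.1 in the same notes). Technical replicates were merged, genes without an Entrez identifier were discarded, and the deposited values are CPM with 1 column per mouse. Their methods name TMM normalization in edgeR, but each column sums to 1000000, so no TMM factor is visible, and the values were read as plain CPM. All 1107016 values were whole reads within 0.1 reads, and the recovered reads were used for the count models and for TMM factors. One of 2 chow formulas was fed per the methods, and the labels do not say which mouse received which. Mice are separate animals, and no pair of them within a group was close enough to be 1 library deposited again. Pairs across groups were not compared in this way.

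Values were analysed as log2(CPM + 1). The 10343 genes with a mean above 2 were fitted together over the 6 groups with limma 3.58.1 in R 4.3.3 (mean-variance trend, 32 residual degrees of freedom), two-sided, with Benjamini-Hochberg adjustment over all genes tested and a threshold of 0.05. Alternatives were a pseudocount of 0.5, no filter on low values, TMM and median-of-ratios factors, edgeR 4.0.16 (quasi-likelihood) and DESeq2 1.42.0 on the recovered reads, each time fitted alone, the mouse number as a block and each mouse left out. The fits were tested on simulated data. The balance of Snrpn to Snrpb was tested by exact permutation over mice. Members and gene lists were chosen with earlier results of these data known. Genes named in full were Snrpb, Snrpn, Lsm1, Sf3b1 and Prpf8, the members called with diet at all 3 times, the 3 largest called rises and falls with diet at each time, the 2 largest in each other comparison, and the 2 largest of the other pathway genes at each time. Ube3a, Lsm6, Snrpd2, Prpf38a and others named only as parts of a count were named after their values were seen. Gene positions and promoters are those of RefSeq. A read without a molecular identifier is not an independent molecule, so depth covers counting error only. A member counted in the totals is not reported here by name.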

Additional observations from a re-analysis of the deposited data

Results flagged for a closer look

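In single groups, 1 mouse stood far from the others for 7 of the 138 combinations of 23 named genes and 6 groups. Chance alone, at 1 in 20, gives 6.9, so the number found is about that of chance. HFD mouse 2 at 8 weeks had Lsm11 at 2.80 CPM (others 5.04 to 6.08), and HFD mouse 4 at 34 weeks had Lsm2 at 15.8 CPM (others 9.19 to 10.1). CD mouse 5 at 34 weeks had Prpf38b at 87.5 CPM (others 49.1 to 62.5) and Snrpn at 17.0 CPM (others 27.7 to 41.3), and it was also the CD mouse with the highest macrophage and the lowest adipocyte marker sum of that group. Prpf6 was at 81.3 CPM in CD mouse 1 at 8 weeks (others 96.4 to 106) and at 95.2 CPM in CD mouse 7 at 34 weeks (others 75.0 to 83.1). Sf3b5 was at 25.1 CPM in CD mouse 4 at 20 weeks (others 23.3 to 24.0).

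The diet difference itself differed between times by the interaction test in 16 cases among the named genes. From 8 to 20 weeks Sf3a1 moved by 0.47 (log2). From 8 to 34 weeks the diet difference became more positive for Prpf39 (1.47), Lsm11 (1.16), Prpf38b (0.99), Sf3a1 (0.88), Sf3b3 (0.81), Prpf4b (0.68), Sf3b4 (0.66), Prpf8 (0.63), Sf3b1 (0.52) and Prpf6 (0.34). It became more negative for Snrpn (-1.37), Lsm3 (-0.62), Sf3b5 (-0.56), Lsm10 (-0.55) and Lsm1 (-0.45). Of these, Prpf6, Lsm1, Lsm10 and the Sf3a1 term from 8 to 20 weeks were not called in all 5 fits. The interaction at 34 weeks uses the same CD and HFD mice at 8 weeks as the diet comparison there.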

How the results depend on the processing

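No called value of a named gene changed direction under the alternatives run. Members called at 34 weeks numbered 7 when each time was fitted alone (16 as reported, and 14 to 16 under the other settings with all mice), and the interaction from 8 to 20 weeks gave 0 without the filter, with TMM or median-of-ratios factors and with edgeR (1 otherwise). Family medians of the diet difference are given here where they moved by at least the SD of the family mean between mice of a group. At 8 weeks Prpf was -0.348 with TMM, -0.337 with median-of-ratios, -0.364 with edgeR and -0.353 with DESeq2, and Sf3a -0.303 with edgeR and -0.295 with DESeq2. At 20 weeks, in the same order of the 4 fits, Prpf was -0.305, -0.269, -0.331 and -0.293, Sf3a -0.224, -0.187, -0.239 and -0.200, Sf3b -0.0255, 0.0128, -0.0270 and 0.0119, and Lsm -0.0646, -0.0295, -0.0795 and -0.0413, while Snrp was -0.0267 with TMM and -0.0233 with edgeR. At 34 weeks Prpf was 0.00448 with edgeR, 0.00870 with DESeq2 and 0.229 with the mouse number as a replicate block. Smaller moves included changes of sign. With TMM factors Snrp went from 0.101 to -0.00421 at 8 weeks and from 0.0786 to -0.00972 at 34 weeks. Mouse numbers do not pair the mice (same-numbered mice correlated at -0.51 to 0.53), and the block gave 16, 17 and 15 members at 8, 20 and 34 weeks and changed no call of the Snrpn to Snrpb balance. With 1 mouse left out the members called ranged from 11 to 18, 11 to 21 and 12 to 20 with diet at 8, 20 and 34 weeks, from 33 to 38 for 34 against 8 weeks in CD mice, 11 to 14 and 20 to 26 for 20 and 34 against 8 weeks in HFD mice, and 0 to 9 and 16 to 23 for the interactions. The Snrpn to Snrpb balance at 34 weeks ranged from -0.772 to -0.445. The balance of Lsm1 to Lsm8 was not run, since Lsm8 was not matched. Depth limits Lsm11, Lsm5 and Lsm2 most, with 2870, 2939 and 3108 reads over all mice.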
